A study of Mus musculus with 8 samples.

Results

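Lysosome and autophagy genes were followed in B16-F10, a mouse melanoma cell line, by RNA sequencing. The group holds 46 genes, chosen by symbol: 17 lysosomal hydrolases and their activators, 9 membrane and lumenal proteins of the lysosome, 2 regulators, 6 genes of the V-ATPase proton pump, and 12 autophagy genes. All 46 were found among the 46477 rows of the deposited table, and 40 of them had a mean of at least 1 FPKM (fragments per kilobase of gene length and relative to the reads of the library) over the 8 libraries, as did 6917 of all rows. Those 40 are described below: 15 hydrolases, 9 membrane and lumenal proteins, 1 regulator, 6 V-ATPase genes and 9 autophagy genes.

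The melanoma cells had been kept for 24 hours on the extracellular matrix that smooth muscle cells left behind. Before they were lysed, these smooth muscle cells were treated with siRNA for 72 hours and then kept in 1 of 2 media for another 72 hours. The series title names tumor conditioned medium from B16-F10 cells, which is read here as TCM; the labels do not spell out SFM. The 8 groups were TCM siKLF4-siFN (both siRNAs), TCM siFN, TCM siKLF4 and TCM siNT, and SFM siKLF4-siFN, SFM siFN, SFM siKLF4 and SFM siNT, where siNT is taken as the control siRNA. Each group was 1 library, so all differences rest on libraries that share a medium or an siRNA. Separate cultures are not stated in the labels. The p-values therefore rest on the spread among libraries of different treatments. That spread may hold effects of the treatments and may be technical, and it is not the spread of replicates.

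Lysosomes break down proteins, lipids, glycans and glycogen with acid hydrolases, which work at the low pH that the V-ATPase keeps up. Autophagy delivers cytoplasm to the lysosome in vesicles whose membranes carry proteins of the ATG8 family, such as LC3 and GABARAP. TFEB, TFE3 and MITF, related transcription factors, are known to bind the letters CACGTG, within the so-called CLEAR element, near many of these genes. TFEB and TFE3 are held in the cytoplasm by mTORC1 when nutrients are ample. In melanocytes and melanoma cells the same pathway borders on the melanosome, a lysosome-related organelle.

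The estimated depth ranged from 11600000 to 23100000 reads per library. SFM siKLF4 had the lowest estimate, yet it had 29023 rows at 0, against 29713 in TCM siKLF4, estimated at 14400000. Its depth is therefore uncertain, as is the counting noise, which rests on these estimates. TCM siKLF4-siFN and TCM siFN were the closest of the 28 pairs of libraries. Their 40 genes differed by a median of 0.053 on the log2(FPKM + 1) scale, against 0.083 to 0.530 in the other pairs, and 3 of the 40 lay beyond counting noise (a z beyond 1.96 on the estimated reads), against 12 to 32 in the other pairs. SFM siKLF4-siFN stood apart, being highest for 31.0% and lowest for 27.1% of all 6917 genes. Klf4 (5.79 to 8.62 FPKM) and Fn1 (1.82 to 3.12 FPKM) are no check of the siRNA labels here, because the sequenced cells did not receive it. Of 10 melanocyte lineage markers 9 passed the filter, with means of 2.50 FPKM for Tyr to 249 FPKM for Tyrp1, while Mitf averaged 0.532 FPKM. Relative to each marker's own mean, the 9 averaged 0.11 in TCM siKLF4-siFN, 0.06 in TCM siFN, 0.18 in TCM siKLF4 and -0.08 in TCM siNT, against -0.12 in SFM siKLF4-siFN, -0.74 in SFM siFN, 0.19 in SFM siKLF4 and 0.39 in SFM siNT on the log2(FPKM + 1) scale. Summed over each marker list, 10 smooth muscle genes had 1.29 to 2.27 FPKM, 8 fibroblast genes 0.151 to 0.309, 7 endothelial genes 3.74 to 5.97 and 12 leukocyte genes 1.96 to 4.56. Most of the endothelial sum was Eng (3.71 to 5.94 FPKM), and most of the leukocyte sum was Cd68, itself 1 of the 40 genes. Des (0.903 to 1.48 FPKM) was the largest part of the smooth muscle sum, followed by Smtn (0.292 to 0.896 FPKM). Acta2 and Myocd, Col3a1 and Dcn, Cdh5 and Kdr, and Cd14, Adgre1 and Itgam, some markers of these 4 cell types, were listed at 0 in every library. Others were above 0 in every library, among them Tagln (0.037 to 0.180 FPKM), Col1a1 (0.056 to 0.107 FPKM) and Postn (0.033 to 0.186 FPKM). Mitosis genes differed between libraries: 26 of them summed to 91.9 FPKM in TCM siKLF4-siFN, 91.5 in TCM siFN, 86.6 in TCM siKLF4 and 26.9 in TCM siNT, against 9.80 in SFM siKLF4-siFN, 10.7 in SFM siFN, 93.5 in SFM siKLF4 and 93.0 in SFM siNT. Over the 40 genes TCM siNT was closest to SFM siFN, with a median difference of 0.142, and next closest to TCM siKLF4, with 0.166. Over all 6917 genes the order was the other way, with 0.151 to TCM siKLF4 and 0.160 to SFM siFN. Whether labels or cultures were exchanged cannot be told from these files, which bears on every contrast of media or siRNA that follows.

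Most of the 40 genes were highest in the same library. In 26 of them (65.0%) the highest library was SFM siKLF4-siFN, against 31.0% of all genes tested, and in 13 (32.5%) the 3 highest libraries were SFM siKLF4-siFN, SFM siFN and TCM siNT, against 13.8% of all genes. Those 3 libraries also had the lowest sums of the mitosis genes. Their part in this order was not tested. Relative to each gene's own mean on the log2(FPKM + 1) scale, the median of the 40 genes was -0.16 in TCM siKLF4-siFN, -0.15 in TCM siFN, -0.01 in TCM siKLF4 and 0.08 in TCM siNT, against 0.29 in SFM siKLF4-siFN, 0.08 in SFM siFN, -0.09 in SFM siKLF4 and 0.03 in SFM siNT. Over all genes tested, the medians of the libraries lay between -0.02 and 0.04. In bulk RNA, fewer cells of a kind and less RNA per cell cannot be told apart.

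**Figure D1:**
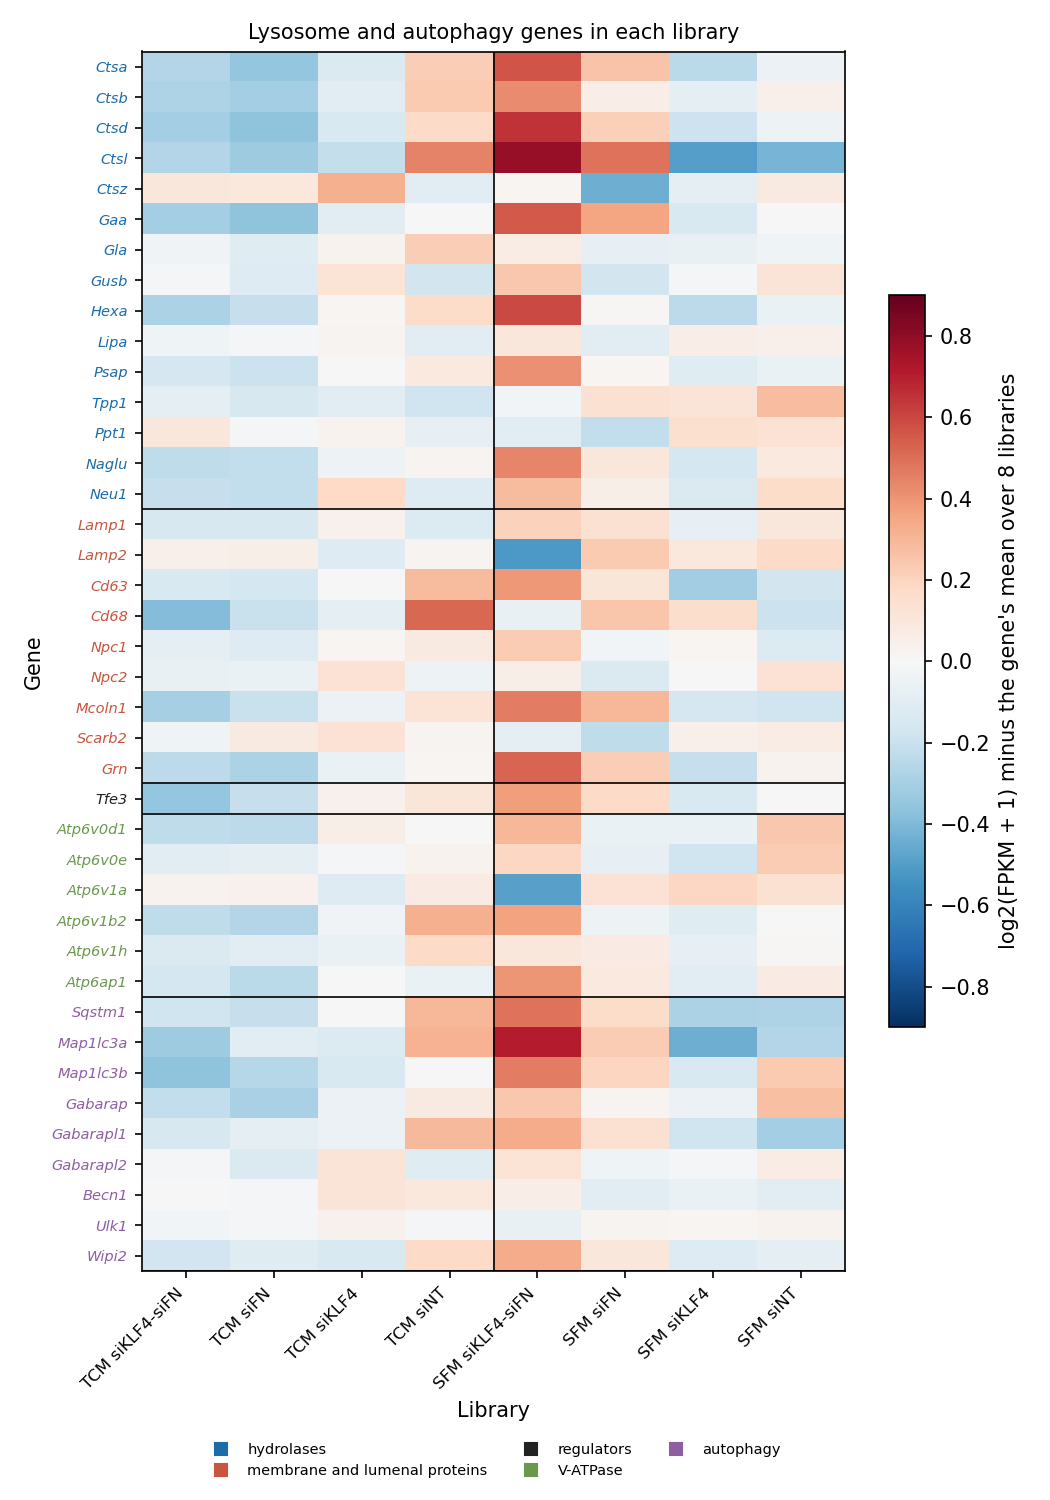
Colour shows log2(FPKM + 1) minus the gene's mean over the 8 libraries for the 40 genes (rows, grouped by role) in each library (columns, TCM left of SFM). The SFM siKLF4-siFN column is mostly red, with 33 of 40 genes above their own mean, while Lamp2 and Atp6v1a are blue there.

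Whether matrix made in TCM gave other levels than matrix made in SFM was asked apart for smooth muscle cells with and without siFN. With siFN, 6 of the 40 genes (15.0%) fell on TCM matrix and none rose: the hydrolases Gaa, Ctsl, Ctsa and Ctsd, the channel gene Mcoln1 and the regulator Tfe3. Of all genes tested, 16.9% passed in either direction and 8.53% fell, so the share of genes that passed was near that of all genes. The values of 33 of the 40 genes lay below 0, with a median of -0.37 on the log2(FPKM + 1) scale, against a median of -0.01 over all genes. In 28 of the 40 genes both TCM libraries lay below both SFM libraries, as they did in 35.4% of all genes. Differences are given on that scale ± SE throughout. The test was limma's moderated test in a model with a media by siFN term, in which libraries with and without siKLF4 stand in for replicates. The count depended on single libraries and on the filter, in the list as over all genes. All calls, of the list and of the whole table, were lost without TCM siKLF4-siFN, TCM siFN or SFM siKLF4-siFN, and more genes passed in both without SFM siFN. The median of the 40 genes was -0.35 without TCM siKLF4-siFN, -0.37 without TCM siFN, -0.19 without SFM siKLF4-siFN and -0.52 without SFM siFN. Over all genes it was 0.01, -0.03, 0.01 and -0.05 in that order. With a pseudocount of 0.1, 2 passed, with no filter on low values 0, and with median-ratio scaling 8. With a mean of at least 5 FPKM, 7 of 28 passed, beside 626 of all 2598 genes.

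Promoters of the genes that passed are shown because the CLEAR letters are known to mark genes of this pathway. RefSeq windows of 250 bases before to 50 after the start, on GRCm38.p6, were at hand for 40 of the 46 genes, as 45 windows. CACGTG, which reads the same on both strands, was found for 14 of those 40 genes (35.0%), against 8.09% of all 27025 genes with a window. Among genes of at least 1 FPKM it was found for 11 of 34 (32.4%) of the list, against 13.4% of all 4367 with a window. TCACGTGA, which holds CACGTG and is also its own reverse complement, was found for 7 of the 40 genes (17.5%), against 1.12% of all genes with a window. Among genes of at least 1 FPKM it was found for 7 of 34 (20.6%) of the list, against 3.02% of all 4367 with a window. By role, CACGTG was found in 7 of 16 hydrolase genes, 2 of 8 membrane and lumenal genes, 3 of 4 V-ATPase genes, 2 of 10 autophagy genes and 0 of 2 regulators. The 250 bases before the start follow for the 6 genes that passed a test, 5′ to 3′ on the gene's strand, with CACGTG in capitals. Of the 2 windows of Ctsa the one with the letters is shown, and of the 2 of Tfe3 the first.
Ctsl, chr13:64370521-64370770, minus strand: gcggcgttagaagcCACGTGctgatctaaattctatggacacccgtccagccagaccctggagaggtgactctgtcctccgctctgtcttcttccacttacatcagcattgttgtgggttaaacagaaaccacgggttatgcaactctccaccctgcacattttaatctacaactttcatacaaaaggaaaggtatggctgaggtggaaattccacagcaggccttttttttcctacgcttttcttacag
Ctsd, chr7:142387828-142388077, minus strand: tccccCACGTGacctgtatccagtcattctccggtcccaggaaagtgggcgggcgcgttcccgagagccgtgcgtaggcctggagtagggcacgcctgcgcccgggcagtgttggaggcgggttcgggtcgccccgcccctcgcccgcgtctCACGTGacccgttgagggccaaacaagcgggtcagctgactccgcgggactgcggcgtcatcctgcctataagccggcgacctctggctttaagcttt
Ctsa, chr2:164833523-164833772, plus strand: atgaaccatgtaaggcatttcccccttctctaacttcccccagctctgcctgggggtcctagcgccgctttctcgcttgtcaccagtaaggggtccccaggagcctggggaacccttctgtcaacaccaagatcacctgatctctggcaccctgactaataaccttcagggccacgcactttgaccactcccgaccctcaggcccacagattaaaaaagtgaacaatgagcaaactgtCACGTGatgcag
Gaa, chr11:119267713-119267962, plus strand: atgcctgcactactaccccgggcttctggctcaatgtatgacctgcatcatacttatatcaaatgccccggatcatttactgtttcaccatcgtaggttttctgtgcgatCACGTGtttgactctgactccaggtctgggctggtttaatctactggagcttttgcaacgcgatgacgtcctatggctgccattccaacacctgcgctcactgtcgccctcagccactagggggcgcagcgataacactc
Mcoln1, chr8:3500269-3500518, plus strand: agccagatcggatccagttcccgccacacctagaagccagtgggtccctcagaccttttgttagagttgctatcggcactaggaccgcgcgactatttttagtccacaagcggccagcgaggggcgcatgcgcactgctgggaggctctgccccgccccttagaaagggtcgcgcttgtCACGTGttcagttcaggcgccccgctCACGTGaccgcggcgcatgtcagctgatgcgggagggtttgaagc
Tfe3, chrX:7762411-7762660, plus strand: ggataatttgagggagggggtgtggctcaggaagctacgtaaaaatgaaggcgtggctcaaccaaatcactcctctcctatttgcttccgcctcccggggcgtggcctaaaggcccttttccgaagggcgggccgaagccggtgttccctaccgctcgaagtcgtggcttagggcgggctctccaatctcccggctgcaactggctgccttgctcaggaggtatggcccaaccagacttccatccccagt

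The letters begin 236 bases before the start in Ctsl, 245 and 98 bases before it in Ctsd, 12 in Ctsa, where a second lies after the start and outside the printed stretch, 140 in Gaa, and 71 and 45 in Mcoln1. Neither window of Tfe3 holds them. With siFN the TCM minus SFM median was -0.49 in the 11 tested genes of the list with CACGTG and -0.36 in the 23 without it. Over all tested genes it was -0.03 in 585 with and 0.00 in 3782 without. For siFN on SFM matrix the medians in the list were 0.31 and 0.11, against 0.017 and -0.002 over all tested genes. For the interaction they were -0.52 and -0.40, against -0.08 and -0.05. Ctsa, Ctsd, Ctsl, Gaa and Mcoln1, which passed a test, are among the genes of the list with CACGTG, so these medians are not independent of the calls. The letters in a window are a description, and binding was not measured here.

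Ctsl, the lysosomal cysteine protease cathepsin L (chr13:64359337-64370890, GRCm38, minus strand), had 51.7 FPKM in TCM siKLF4-siFN, 49.8 in TCM siFN, 53.6 in TCM siKLF4 and 85.5 in TCM siNT, against 108 in SFM siKLF4-siFN, 88.2 in SFM siFN, 43.9 in SFM siKLF4 and 46.4 in SFM siNT. SFM siKLF4-siFN, SFM siFN and TCM siNT were the 3 high libraries, and with siFN the groups did not overlap. The TCM minus SFM difference with siFN was -0.93 ± 0.24 (limma adjusted p = 0.0460). Exons of Ctsl overlap an antisense gene and a processed pseudogene, and the strand setting of the counting is not given in the sources used here, so its level is uncertain.

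Ctsd, the aspartic protease cathepsin D (chr7:142375911-142388038), stood at 61.5 FPKM in TCM siKLF4-siFN, 59.2 in TCM siFN, 69.2 in TCM siKLF4 and 85.9 in TCM siNT, against 120.5 in SFM siKLF4-siFN, 88.6 in SFM siFN, 66.9 in SFM siKLF4 and 73.8 in SFM siNT. Both TCM libraries with siFN were lower than all others, and SFM siKLF4-siFN was the highest. Its difference with siFN was -0.77 ± 0.21 (limma adjusted p = 0.0491). For Ctsa, cathepsin A, a carboxypeptidase that also protects other hydrolases (chr2:164832873-164841032), the values were 17.4 FPKM in TCM siKLF4-siFN, 16.3 in TCM siFN, 19.1 in TCM siKLF4 and 24.7 in TCM siNT, against 31.7 in SFM siKLF4-siFN, 25.4 in SFM siFN, 17.7 in SFM siKLF4 and 20.2 in SFM siNT. The order of the libraries was much as for Ctsd, and the difference was -0.72 ± 0.19 (limma adjusted p = 0.0489). Exons of both genes overlap annotated neighbours, so these levels are uncertain too, as are those of Ctsb, Ctsz, Hexa, Ppt1, Glb1, Grn, Lamp1, Npc1, Atp6v1h, Sqstm1, Map1lc3b, Gabarapl1 and Becn1.

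Gaa, the acid glucosidase that breaks down glycogen (chr11:119267887-119285454), had the smallest p of the 40 genes. It had 9.70 FPKM in TCM siKLF4-siFN, 9.28 in TCM siFN, 11.4 in TCM siKLF4 and 12.2 in TCM siNT, against 18.4 in SFM siKLF4-siFN, 15.9 in SFM siFN, 11.0 in SFM siKLF4 and 12.3 in SFM siNT. TCM siNT lay below both SFM libraries with siFN here and was level with SFM siNT. The difference with siFN was -0.79 ± 0.15 (limma adjusted p = 0.0293).

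Of the other 11 hydrolases, 9 had values below 0 with siFN. Hexa, a subunit of beta-hexosaminidase, had 7.81 and 8.32 FPKM in TCM siKLF4-siFN and TCM siFN, against 15.3 and 9.81 FPKM in SFM siKLF4-siFN and SFM siFN, a difference of -0.55 ± 0.21 (limma adjusted p = 0.112). Ctsb, cathepsin B, had 16.9 and 16.6 FPKM in TCM siKLF4-siFN and TCM siFN, against 28.3 and 21.7 FPKM in SFM siKLF4-siFN and SFM siFN (-0.54 ± 0.19, SE). Psap, the precursor of the saposins that help lipid breakdown, stood at 23.3 and 22.6 FPKM in TCM siKLF4-siFN and TCM siFN, against 35.0 and 26.3 FPKM in SFM siKLF4-siFN and SFM siFN. In each of these 3 genes SFM siKLF4-siFN was the highest of all 8 libraries. Naglu and Neu1, enzymes of glycan breakdown, had differences of -0.49 ± 0.17 and -0.38 ± 0.18. Ctsz, cathepsin Z, and Ppt1, a thioesterase, lay the other way, at 0.31 ± 0.20 and 0.21 ± 0.10. Their lowest library was SFM siFN. Gla, Gusb, Lipa and Tpp1 lay between -0.17 and -0.03. None of these 11 genes passed the test.

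Among membrane and lumenal proteins, Mcoln1, the calcium channel TRPML1 of the lysosome (chr8:3500457-3515232), had 1.78 FPKM in TCM siKLF4-siFN, 1.97 in TCM siFN, 2.30 in TCM siKLF4 and 2.73 in TCM siNT, against 3.70 in SFM siKLF4-siFN, 3.20 in SFM siFN, 2.08 in SFM siKLF4 and 2.02 in SFM siNT. The level is low, but the same 3 libraries were on top as for Ctsa, namely SFM siKLF4-siFN, SFM siFN and TCM siNT. Its difference with siFN was -0.63 ± 0.13 (limma adjusted p = 0.0330). Grn, progranulin, a lumenal protein, had 29.3 and 28.2 FPKM in TCM siKLF4-siFN and TCM siFN, against 50.04 and 40.6 FPKM in SFM siKLF4-siFN and SFM siFN, and its difference of -0.63 ± 0.17 (limma adjusted p = 0.0517) lay just outside the threshold. Lamp1, a main glycoprotein of the lysosomal membrane, had 38.8 and 38.8 FPKM in TCM siKLF4-siFN and TCM siFN, against 49.95 and 47.4 FPKM in SFM siKLF4-siFN and SFM siFN.

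Lamp2, the related membrane glycoprotein that serves chaperone-mediated autophagy, went another way. Lamp2 had 6.83 FPKM in TCM siKLF4-siFN, 6.84 in TCM siFN, 5.999 in TCM siKLF4 and 6.72 in TCM siNT, against 4.30 in SFM siKLF4-siFN, 7.92 in SFM siFN, 7.10 in SFM siKLF4 and 7.54 in SFM siNT. SFM siKLF4-siFN was the lowest library of this gene, and SFM siFN the highest, so the libraries with siFN on SFM matrix lay at opposite ends. Cd68, a lysosomal glycoprotein best known from macrophages, was highest in TCM siNT, at 4.52 FPKM, and lowest in TCM siKLF4-siFN, at 1.95 FPKM. Of the other leukocyte markers, the highest was Lyz2, at up to 0.140 FPKM. Cd63, a tetraspanin, had a mean of 66.3 FPKM, but the table also lists a near-identical copy, Cd63-ps, at a mean of 484 FPKM, so the reads of the gene may be split and its level is uncertain. Npc1 and Npc2, which export cholesterol, differed by -0.21 ± 0.13 and -0.02 ± 0.15 with siFN, and Scarb2, a receptor that sorts glucocerebrosidase, by 0.18 ± 0.11. Of these genes only Mcoln1 passed the test.

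Of the regulators, Tfe3 (chrX:7762560-7775202) had 4.95 FPKM in TCM siKLF4-siFN, 5.56 in TCM siFN, 6.79 in TCM siKLF4 and 7.14 in TCM siNT, against 8.81 in SFM siKLF4-siFN, 7.51 in SFM siFN, 5.89 in SFM siKLF4 and 6.55 in SFM siNT. The TCM libraries with siFN were the 2 lowest and the SFM libraries with siFN the 2 highest. The difference was -0.55 ± 0.14 (limma adjusted p = 0.0477). Tfeb averaged 0.089 FPKM and was not tested. Mitf, the melanocyte member of the family and no member of the list, was also below the filter, with 0.735 FPKM in TCM siKLF4-siFN, 0.722 in TCM siFN, 0.557 in TCM siKLF4 and 0.284 in TCM siNT, against 0.131 in SFM siKLF4-siFN, 0.205 in SFM siFN, 0.840 in SFM siKLF4 and 0.777 in SFM siNT. Its 3 low libraries were SFM siKLF4-siFN, SFM siFN and TCM siNT.

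None of the 6 V-ATPase genes passed. Atp6ap1, an accessory protein of the pump, had 28.4 and 26.7 FPKM in TCM siKLF4-siFN and TCM siFN, against 42.1 and 33.8 FPKM in SFM siKLF4-siFN and SFM siFN and a difference of -0.44 ± 0.17 (limma adjusted p = 0.107). For Atp6v1b2, a subunit of the catalytic head, the values were 19.4 and 19.0 FPKM in TCM siKLF4-siFN and TCM siFN, against 29.8 and 22.1 FPKM in SFM siKLF4-siFN and SFM siFN, and its TCM siNT library, at 28.9 FPKM, was nearly as high as SFM siKLF4-siFN. Atp6v0d1, Atp6v0e and Atp6v1h lay at -0.35 ± 0.17, -0.15 ± 0.17 and -0.20 ± 0.11. Atp6v1a, the catalytic subunit, went with Lamp2 instead. It stood at 5.75 FPKM in TCM siKLF4-siFN, 5.78 in TCM siFN, 5.09 in TCM siKLF4 and 5.94 in TCM siNT, against 3.70 in SFM siKLF4-siFN, 6.23 in SFM siFN, 6.51 in SFM siKLF4 and 6.26 in SFM siNT. SFM siKLF4-siFN was the lowest library and the other 7 lay between 5.09 and 6.51 FPKM.

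**Figure D2:**
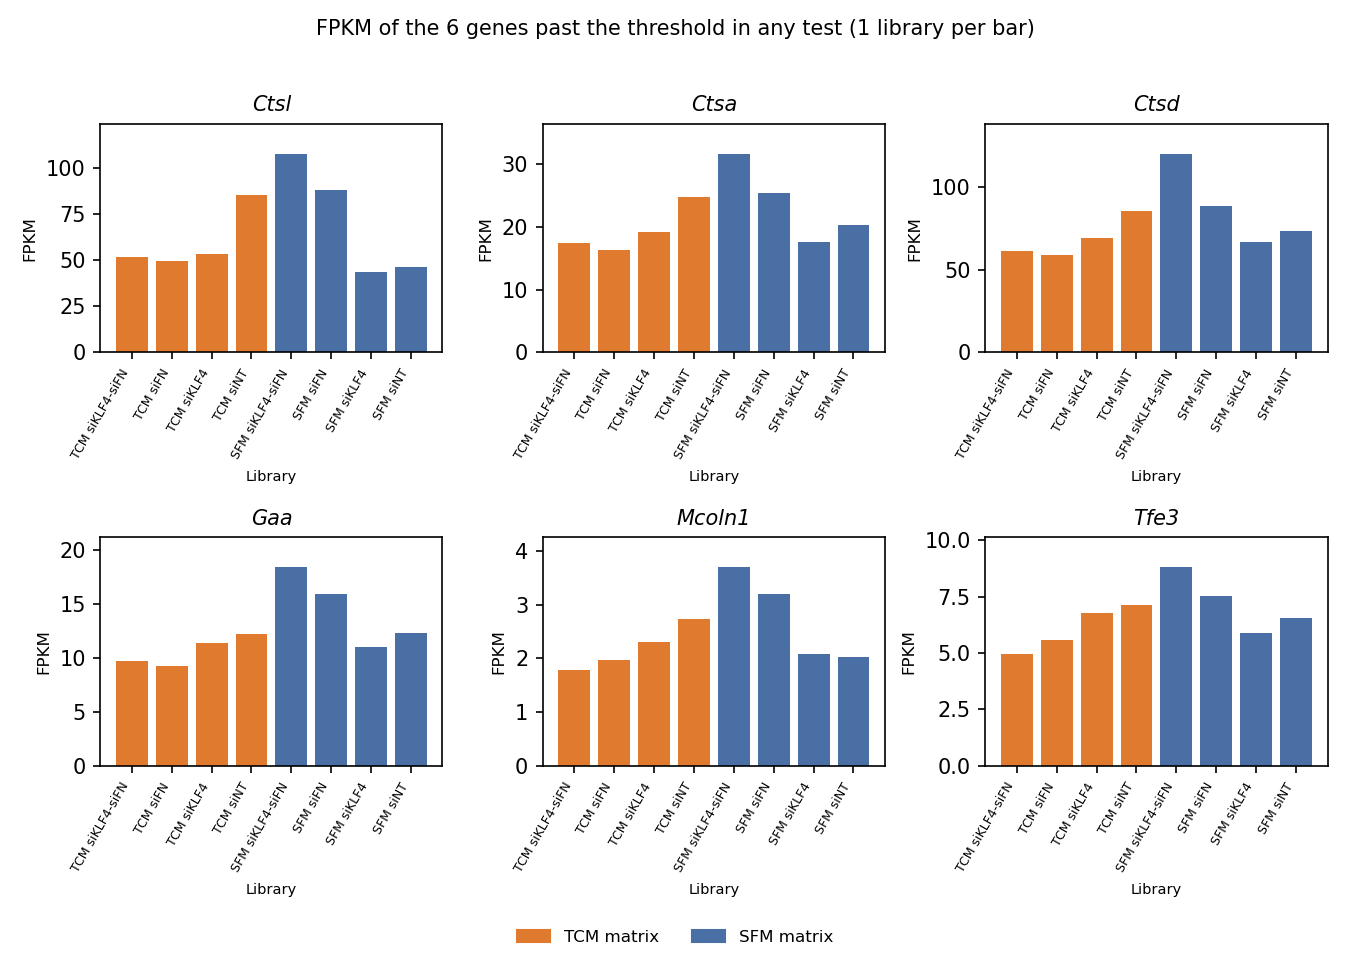
Bars give the FPKM of 1 library each for Ctsl, Ctsa, Ctsd, Gaa, Mcoln1 and Tfe3, with TCM libraries left and SFM libraries right, on axes that start at 0. SFM siKLF4-siFN is the tallest bar in all 6 panels, at 108 FPKM for Ctsl and 3.70 FPKM for Mcoln1, and TCM siNT is the tallest of the TCM bars.

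Sqstm1, the autophagy receptor p62, had the highest level of the 40 genes per length. Sqstm1 had 253 FPKM in TCM siKLF4-siFN, 249 in TCM siFN, 286 in TCM siKLF4 and 355 in TCM siNT, against 404 in SFM siKLF4-siFN, 322 in SFM siFN, 236 in SFM siKLF4 and 237 in SFM siNT. The same 3 libraries were on top, but the difference with siFN, -0.52 ± 0.18 (limma adjusted p = 0.0886), did not pass. Among the ATG8 family, Map1lc3a (LC3A) had 8.22 FPKM in TCM siKLF4-siFN, 9.76 in TCM siFN, 9.56 in TCM siKLF4 and 13.3 in TCM siNT, against 17.9 in SFM siKLF4-siFN, 12.5 in SFM siFN, 7.49 in SFM siKLF4 and 8.63 in SFM siNT. SFM siKLF4-siFN had the highest level and SFM siKLF4 the lowest. Its difference with siFN was -0.68 ± 0.23 (limma adjusted p = 0.0787). Map1lc3b (LC3B), whose protein is the most widely used marker of autophagosomes, had 10.9 and 11.8 FPKM in TCM siKLF4-siFN and TCM siFN, against 20.05 and 16.5 FPKM in SFM siKLF4-siFN and SFM siFN. Its difference was -0.64 ± 0.18 (limma adjusted p = 0.0553). Only RNA was measured here, and autophagosomes were not. Gabarap and Gabarapl1, which act late in autophagosome formation, differed by -0.39 ± 0.18 and -0.35 ± 0.18, and Gabarapl2 by -0.12 ± 0.13. Wipi2, which brings the ATG16L1 complex to the forming membrane, differed by -0.36 ± 0.15. Becn1 and Ulk1, of the complexes that start autophagy, were level, at 0.01 ± 0.13 and 0.00 ± 0.10. Over all 8 libraries Ulk1 kept within 1.30 to 1.48 FPKM and Becn1 within 7.86 to 9.24 FPKM.

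The 6 genes under the filter were not tested. Ctsc, a dipeptidyl peptidase, had 0.508 to 0.907 FPKM, Glb1, a beta-galactosidase, 0.449 to 0.630, Wipi1 0.461 to 0.942, Atg5 0.175 to 0.282, Atg7 0.142 to 0.243 and Tfeb 0.061 to 0.112. Atg5 and Atg7 belong to the machinery that joins ATG8 proteins to lipid.

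Without siFN, the contrast of TCM and SFM matrix gave no call: 0 of the 40 genes and 0 of all 6917 (0%) passed in limma, with 1 and 627 at an unadjusted p under 0.05. The values of 25 of the 40 lay above 0, with a median of 0.08, against 0.03 over all genes. The smallest p values were those of Ctsl, at 0.58 ± 0.24 (limma adjusted p = 0.543), Sqstm1 (0.43 ± 0.18), Cd63 (0.38 ± 0.18), Gabarapl1 (0.36 ± 0.18) and Map1lc3a (0.44 ± 0.23) above 0. Below 0 they were Tpp1, a peptidase, at -0.34 ± 0.15, Ppt1 (-0.16 ± 0.10), Atp6v1a (-0.18 ± 0.19), Lamp2 (-0.18 ± 0.20) and Lipa (-0.09 ± 0.12). In 11 genes both TCM libraries lay above both SFM libraries, as in 29.6% of all genes, and in 5 both lay below, as in 19.2%. These values average unlike pairs, since Ctsl had 85.5 FPKM in TCM siNT and 46.4 in SFM siNT but 53.6 in TCM siKLF4 and 43.9 in SFM siKLF4.

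**Figure D3:**
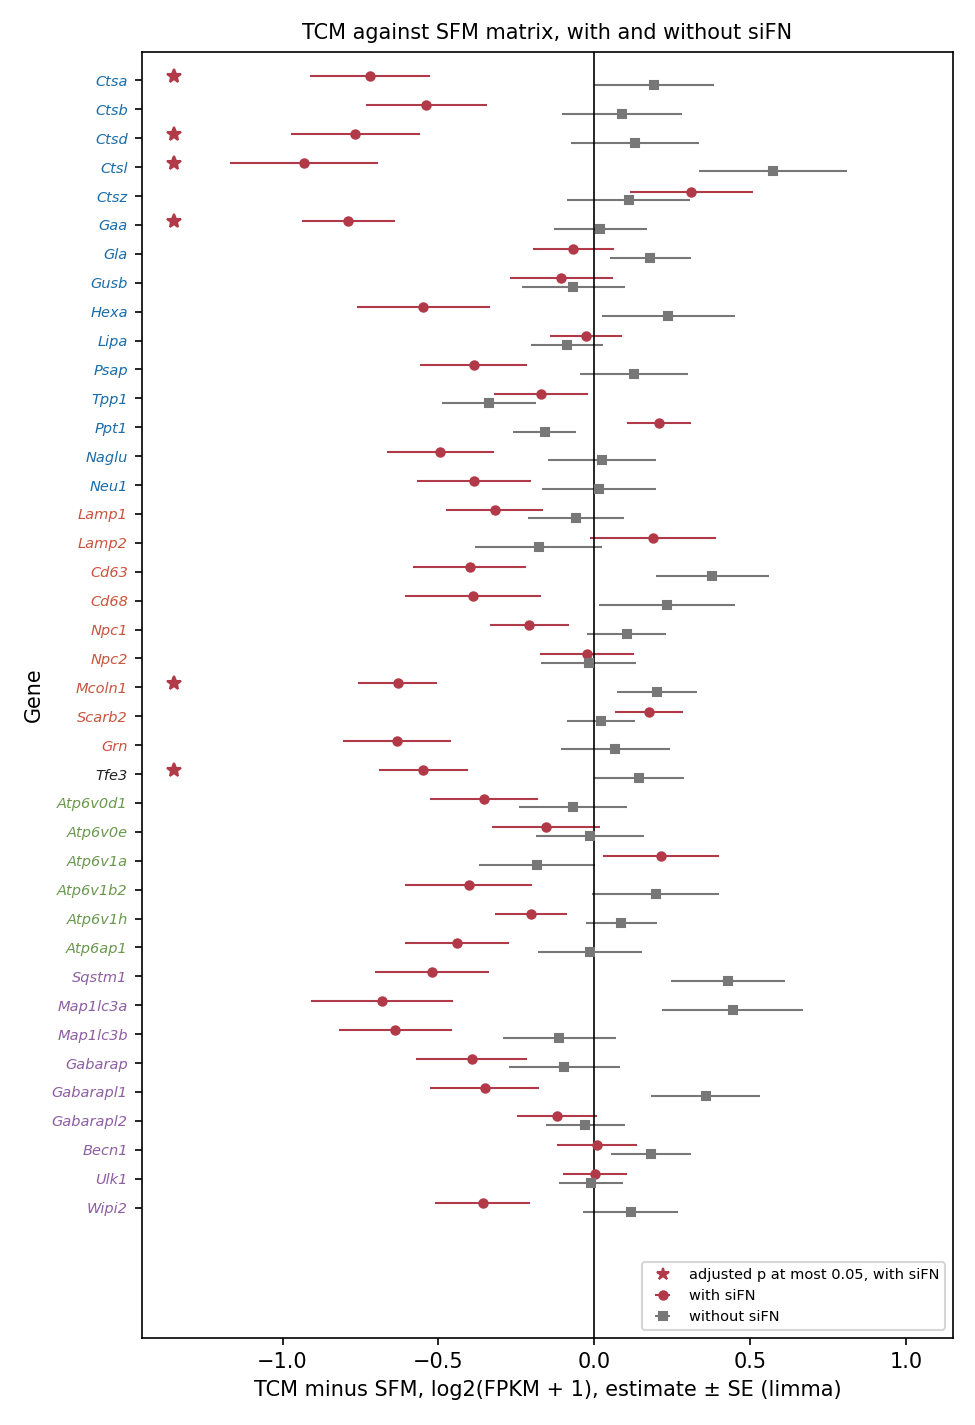
Points are limma estimates of TCM minus SFM on the log2(FPKM + 1) scale with siFN (circles) and without it (squares) for the 40 genes, and bars are standard errors. Stars mark the 6 genes that passed with siFN. With siFN 33 of 40 estimates are below 0, and without siFN 15 are.

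Whether the difference between TCM and SFM matrix itself differed with siFN was tested as an interaction of both factors. It did for 2 of the 40 genes (5.0%), both with the difference lower with siFN, in a table where 7.17% of all genes passed and 3.34% did so in that direction. Ctsl gave -1.51 ± 0.34 (limma adjusted p = 0.0480) and Mcoln1 -0.83 ± 0.18 (limma adjusted p = 0.0470). The values of 32 of the 40 lay below 0, with a median of -0.41, against -0.06 over all genes. Next below 0 were Gaa (-0.81 ± 0.21; limma adjusted p = 0.0622), Sqstm1 (-0.95 ± 0.26) and Map1lc3a (-1.12 ± 0.32), none of which passed. Above 0 the smallest p values were those of Ppt1 (0.37 ± 0.14), Atp6v1a (0.40 ± 0.26), Lamp2 (0.37 ± 0.29), Scarb2 (0.15 ± 0.15) and Tpp1 (0.17 ± 0.21). Lamp2 and Scarb2 turned below 0 when GC content and length were removed, at -0.48 and -0.04. Both calls were lost without TCM siKLF4-siFN, TCM siFN, TCM siNT, SFM siKLF4-siFN, SFM siKLF4 or SFM siNT. Over the fits that leave out a library, Ctsl lay between -1.88 and -1.13 and Mcoln1 between -0.95 and -0.71. Without SFM siFN more genes passed, in the list as over all genes. The median of the 40 was then -0.52, against -0.10 over all genes. With a pseudocount of 0.1, with no filter or with another scaling, 0 passed.

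On SFM matrix, siFN against no siFN gave 1 call of 40 (2.5%), Ctsl, which rose by 1.10 ± 0.24 (limma adjusted p = 0.0456). Of all genes 6.92% passed and 3.17% rose. The values of 30 of the 40 genes lay above 0, with a median of 0.16, against 0.01 over all genes, and in 19 both siFN libraries lay above both others, as in 30.6% of all genes. Mcoln1 stood at 0.54 ± 0.13 (limma adjusted p = 0.0520), just outside the threshold, followed by Map1lc3a (0.82 ± 0.23), Gaa (0.52 ± 0.15) and Sqstm1 (0.61 ± 0.18). Below 0 were Ppt1 (-0.30 ± 0.10), Scarb2 (-0.21 ± 0.11), Atp6v1a (-0.34 ± 0.19), Lamp2 (-0.27 ± 0.20) and Ctsz (-0.21 ± 0.20). Lamp2 turned above 0 without SFM siKLF4-siFN, at 0.06. The call of Ctsl was lost without TCM siKLF4-siFN, TCM siFN, SFM siKLF4-siFN, SFM siKLF4 or SFM siNT, and with a pseudocount of 0.1, no filter or another scaling. Without SFM siFN more genes passed, in the list as over all genes, and the median of the 40 was 0.27, against 0.04 over all genes. This contrast shares its SFM siFN libraries with the contrast of TCM and SFM above, so the values are not independent.

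On TCM matrix, siFN against no siFN gave 0 calls of 40 and 0 of 6917 genes (0%) in limma, with 1 and 391 at an unadjusted p under 0.05. The values of 35 of the 40 lay below 0 (median -0.21, against -0.04 over all genes), and in 28 both siFN libraries lay below both others, as in 34.2% of all genes. The smallest p values below 0 were those of Tfe3 (-0.35 ± 0.14; limma adjusted p = 0.738), Cd68 (-0.51 ± 0.22), Mcoln1 (-0.29 ± 0.13), Gaa (-0.29 ± 0.15) and Atp6v1b2 (-0.39 ± 0.20), and the 5 values above 0 were those of Ppt1, Lamp2, Atp6v1a, Tpp1 and Lipa, all between 0.01 and 0.09. For Ctsl, TCM siNT was the high library, with 51.7 and 49.8 FPKM in TCM siKLF4-siFN and TCM siFN, against 53.6 in TCM siKLF4 and 85.5 in TCM siNT.

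Averaged over the other factors, neither medium nor siRNA gave a call. limma passed 0 of the 40 genes and 0% of all genes for the media effect, for siKLF4 and for siFN, with 0 of the 40 and 464, 84 and 84 of all genes at an unadjusted p under 0.05. For the media effect, 32 of the 40 values lay below 0, with a median of -0.11 against 0.02 over all genes. The smallest p values were those of Map1lc3b (-0.37 ± 0.17; limma adjusted p = 0.747), Tpp1, Gaa, Gabarap and Atp6v0d1 below 0, and Ctsz (0.21 ± 0.15), Scarb2, Becn1, Gla and Ppt1 above. For siKLF4, Gusb, a beta-glucuronidase (0.17 ± 0.12), Ctsz, Gabarapl2, Lipa and Ppt1 led above 0, and Lamp2 (-0.24 ± 0.16), Atp6v1a, Cd68, Atp6v1h and Map1lc3b below. For siFN, Ctsl (0.34 ± 0.34), Map1lc3a, Mcoln1, Gabarapl1 and Gaa led above 0, and Scarb2 (-0.14 ± 0.09), Ppt1, Cd68, Npc2 and Atp6v1a below. For Ctsl and Mcoln1 the siFN average pools differences of opposite sign on SFM and TCM matrix.

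Pairs of single libraries were set side by side with no test, and differences of at least 1 on the log2(FPKM + 1) scale were counted. TCM siKLF4-siFN against SFM siKLF4-siFN had 2 of the 40 genes past it, both lower, namely Ctsl (-1.05) and Map1lc3a (-1.03), with 10.2% of all genes past it. Above 0, Lamp2 (0.56) and Atp6v1a (0.52) were farthest. SFM siKLF4-siFN against SFM siNT had 1, Ctsl (1.20), with 8.62% of all genes. Map1lc3a followed at 0.97, and Lamp2 (-0.69) and Atp6v1a (-0.63) lay farthest below 0. The other 8 pairs had none of the 40. TCM siFN against SFM siFN had 5.05% of all genes past 1, and its ends were Ctsl (-0.81), Gaa (-0.72), Scarb2 (0.31) and Ctsz (0.54). SFM siFN against SFM siNT had 3.66% of all genes, with Ctsl (0.91) and Map1lc3a (0.49) above 0 and Ctsz (-0.52) and Ppt1 (-0.35) below.

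The other pairs had fewer genes past 1. TCM siNT against SFM siNT had 2.43% of all genes past 1, with Ctsl (0.87) and Cd68 (0.71) above 0 and Tpp1 (-0.46) and Neu1 (-0.28) below. TCM siKLF4 against SFM siKLF4 had 1.32%, and 30 of the 40 genes lay above 0 (median 0.11, against 0.08 over all genes), with Ctsz (0.40) and Neu1 (0.32) above 0 and Atp6v1a (-0.30) and Cd68 (-0.24) below. SFM siKLF4 against SFM siNT had 0.723%, with Cd68 (0.35) and Npc1 (0.15) above 0 and Atp6v0e (-0.41) and Map1lc3b (-0.38) below. On TCM matrix the shares against siNT were 1.78% for siKLF4, 1.86% for siFN and 2.04% for siKLF4-siFN. Ctsl and Cd68 lay farthest below 0 in all 3, with Ctsl at -0.66, -0.77 and -0.72 and Cd68 at -0.59, -0.72 and -0.91 in that order. Ctsz lay above 0 in all 3, at 0.42, 0.19 and 0.20, beside Neu1 (0.30), Lipa (0.08) and Ppt1 (0.18) in that order.

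GC content moved with these differences over the whole table. Spearman's rho of the TCM minus SFM difference with siFN and the GC content of the longest transcript was -0.42 across 6563 genes and -0.46 across the 40 genes, given as a description since genes of a library share its depth and base composition. For siFN on SFM matrix it was 0.43 and 0.49. For siFN on TCM matrix rho was -0.47 and -0.39, and for TCM minus SFM without siFN 0.395 and 0.356. Taken for each library relative to the mean of all 8, it was farthest from 0 in SFM siKLF4-siFN, at 0.54 and 0.51. That is the library in which most of the 40 genes were highest. In SFM siFN it was 0.02 and 0.24, in SFM siKLF4 -0.43 and -0.50, and in TCM siKLF4-siFN -0.41 and -0.44. Among the 17 genes with 50% to 55% GC, all 17 lay below 0 with siFN, with a median of -0.39 against -0.12 for all genes in that range. Among the 9 of at least 55% GC the median was -0.55, against -0.18. The 6 genes under 45% GC had a median of -0.09, against 0.34, and Ctsl, at 44.3% GC, lay at -0.93 among them. Lamp2 (38.7% GC) and Atp6v1a (44.6%) are of low GC content too. With GC content and length removed from each library, an alternative chosen after seeing the data, 9 of the 40 genes fell on TCM matrix with siFN, Ctsd not among them. Of all 6563 genes with a GC content, 1316 passed in that contrast and 708 fell. The interaction test passed 2 of the 40 and 495 of the 6563 genes.

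**Figure D4:**
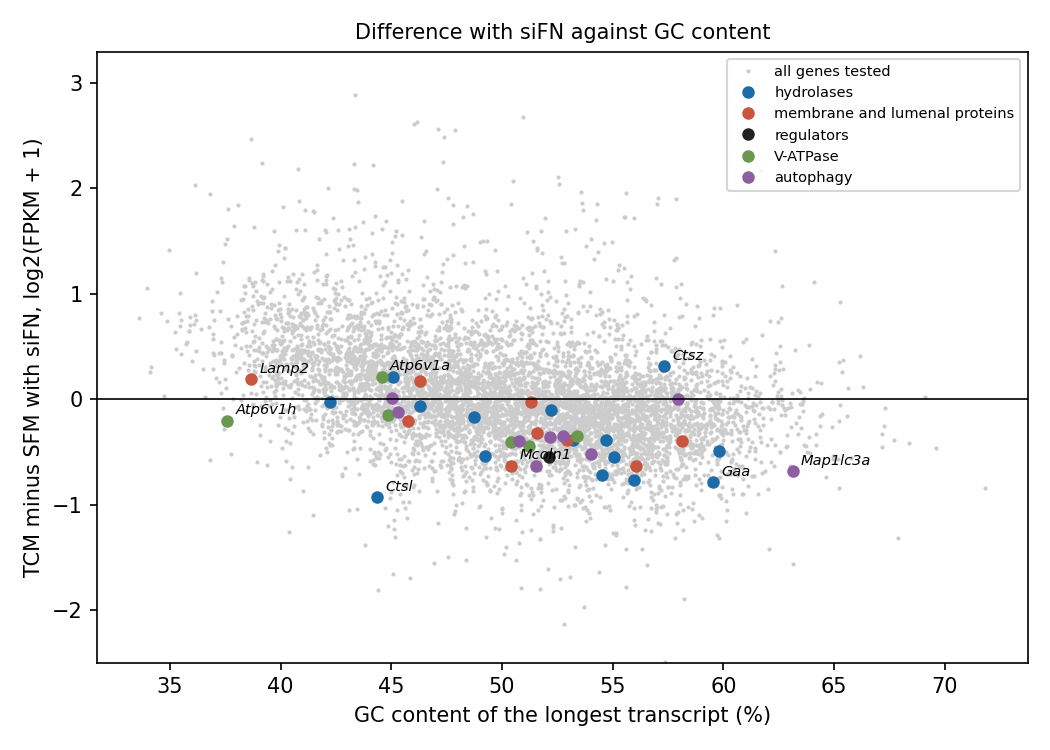
Each point is a gene, placed by the GC content of its longest transcript (percent, horizontal axis) and its TCM minus SFM difference with siFN on the log2(FPKM + 1) scale (vertical axis). Grey points are all genes tested with a GC content, of which 1 lies outside the plotted range, and coloured points are the 40 genes by role. Grey points slope down to the right, and most coloured points lie below 0, Ctsl the lowest at -0.93.

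Further genes of the pathway, from lists that were chosen with earlier results of these data known, were mixed. In the contrast of TCM and SFM with siFN, 16.9% of all genes passed, and the counts of these lists stand beside that share. With siFN on both matrices, the TCM minus SFM median of 16 other hydrolases and activators was -0.14, with 11 of 16 below 0, and 1 of the 16 passed, in the lower direction. Of 22 other membrane and sorting genes 1 rose, Igf2r, the receptor that delivers hydrolases tagged with mannose 6-phosphate, with 1.98 and 2.04 FPKM in TCM siKLF4-siFN and TCM siFN, against 1.24 and 1.03 FPKM in SFM siKLF4-siFN and SFM siFN (0.50 ± 0.13; limma adjusted p = 0.0446), and the list's median was -0.11. None of 10 other V-ATPase subunits passed (median 0.05), and the smallest p values were those of Atp6v1d (0.51 ± 0.14) and Atp6ap2 (0.34 ± 0.14).

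Of 19 other autophagy genes 1 fell and 2 rose. Wdr45, which binds phosphoinositides on the forming autophagosome, had 4.62 and 4.12 FPKM in TCM siKLF4-siFN and TCM siFN, against 11.8 and 8.12 FPKM in SFM siKLF4-siFN and SFM siFN (-1.01 ± 0.21; limma adjusted p = 0.0339). Bnip3, a receptor for mitophagy that hypoxia is known to raise, had 20.7 and 20.4 FPKM in TCM siKLF4-siFN and TCM siFN, against 12.2 and 12.8 FPKM in SFM siKLF4-siFN and SFM siFN (0.67 ± 0.17; limma adjusted p = 0.0452), and Atg3, which passes ATG8 proteins to lipid, had 2.01 and 1.94 FPKM in TCM siKLF4-siFN and TCM siFN, against 1.09 and 1.27 FPKM in SFM siKLF4-siFN and SFM siFN (0.45 ± 0.11; limma adjusted p = 0.0415). The median of the list was 0.05. Among 9 genes of mTORC1 and TFEB family control, Sesn2, a leucine sensor and stress gene, fell, at -0.51 ± 0.13 (limma adjusted p = 0.0457), and the median was -0.05. For siFN on SFM matrix Bnip3 fell by 0.84 ± 0.17 (SE; limma adjusted p = 0.0422), and no other gene of these 5 lists passed, against 6.92% of all genes. Nearest were Ids, a sulfatase (-0.64 ± 0.16; limma adjusted p = 0.0623), Atp6v1d (-0.58 ± 0.14), Atp6ap2 (-0.52 ± 0.14), Igf2r (-0.36 ± 0.13), Lamtor3 of the Ragulator complex (-0.38 ± 0.15), Flcn (-0.33 ± 0.13) and Sesn2 (0.31 ± 0.13). In the interaction the smallest p values were those of Tax1bp1, an autophagy receptor (1.88 ± 0.46; limma adjusted p = 0.0578), Wdr45 (-1.16 ± 0.30), Ids (0.79 ± 0.23), Atp6v1d (0.69 ± 0.20), Atp6ap2 (0.61 ± 0.20), Igf2r (0.54 ± 0.18), Tmem192 (-0.47 ± 0.18), Sesn2 (-0.50 ± 0.18) and Tsc2 (-0.33 ± 0.16). The interaction, the contrast without siFN and siFN on TCM matrix gave no call in them, with 7.17%, 0% and 0% of all genes passing.

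Other gene lists moved in the same libraries. All 16 tested mitosis genes rose on TCM matrix with siFN, with a median of 1.69, and all 16 fell with siFN on SFM matrix, with a median of -1.73. Over all 6917 genes, 582 rose in the first contrast and 260 fell in the second. Of 16 tested ATF4 and CHOP stress genes, 7 fell on TCM matrix with siFN and 2 rose with siFN on SFM matrix, where 8.53% of all genes fell and 3.17% rose in the same contrasts. Their part in the values of the lysosome and autophagy genes was not tested.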

How the data were processed

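RNA of 8 libraries, 1 per condition, was analysed from a single table. The authors deposited FPKM values, with a column for each library. STAR 2.4.1d, Partek and mm10 are named, per the submitters' processing notes. How reads were counted and whether strand was used is not stated there, so genes with overlapping or near-identical copies are uncertain.

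FPKM was converted to log2(FPKM + 1) for the genes whose mean reached 1 FPKM; this scale understates changes of low genes. Tests used limma 3.58.1 (R 4.3.3), two-sided, with a trend of the variance on the mean and Benjamini-Hochberg adjustment over 6917 genes at 0.05. Media, siKLF4 and siFN were fitted additively (4 residual degrees of freedom), and a media by siFN term was added for the other contrasts (3). Errors are SE. Only the interaction test was run on simulated data, with planted changes and independent noise. The other contrasts were not checked in that way.

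Depth was estimated from steps of low values, of which 44.0% to 48.7% lay within 0.05 of a whole read; it is approximate, and no count test was run. Symbols of 42026 rows matched GENCODE M21 on GRCm38.

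Genes and lists were chosen with earlier results of these data known. Named are genes past the threshold and, where fewer than 3 passed, the 5 with the smallest p each way; for pairs, those past 1 or the 2 farthest each way; per further list, those past the threshold or else the 2 with the smallest p, given for the contrasts in which any gene of the table passed. Alternatives were another pseudocount, filters, scaling, leaving out each library, and removal of GC content and length. The result of 1 gene of the further lists is not reported here.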

Additional observations from a re-analysis of the deposited data

Results flagged for a closer look

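The TCM minus SFM difference differed between matrix made with and without siFN in 2 of the 40 genes (5.0%), by the interaction test. Of all genes 7.17% passed this test, and 3.34% did so in the same direction. Neither gene passed with a pseudocount of 0.1, with no filter or with median-ratio scaling, and both calls depended on single libraries. For Ctsl the difference of differences was -1.51 (log2(FPKM + 1) scale; limma adjusted p = 0.0480), from -0.93 ± 0.24 with siFN and 0.58 ± 0.24 without (SE). For Mcoln1 it was -0.83 (limma adjusted p = 0.0470), from -0.63 ± 0.13 and 0.20 ± 0.13. Each condition was 1 library, so no library could be set against others of its own group.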

How the results depend on the processing

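No paired analysis was possible because each condition had 1 library and the labels number no replicates. Leaving out 1 library at a time gave 0 to 19 of the 40 genes past the threshold for the interaction, 0 to 18 for TCM minus SFM with siFN and 0 to 13 for siFN on SFM matrix; over all genes these were 0 to 2065, 0 to 2243 and 0 to 1835, and 0 to 1 for the siFN effect. With a library left out, 1 arm of a contrast rests on a lone library that is assumed to vary like the others. For the interaction, 0 of the 40 passed with a pseudocount of 0.1, 0 with no filter, 0 with median-ratio scaling and 1 with a mean of at least 5 FPKM; over all genes 0 passed with a pseudocount of 0.1, 14 with no filter and 251 with the filter at 5. For TCM minus SFM with siFN, 2 of the 40 passed with a pseudocount of 0.1, 0 with no filter and 8 with median-ratio scaling, and 7 of 28 with the filter at 5. Over all genes 837, 14, 1158 and 626 passed in that order. For siFN on SFM matrix, 0 of the 40 passed with a pseudocount of 0.1, 0 with no filter, 0 with median-ratio scaling and 2 with GC content and length removed. Over all genes 281, 10, 474 and 687 passed in that order, and 259 with the filter at 5. With no filter, 8 genes passed for TCM minus SFM without siFN and 13 for siFN on TCM matrix, none of them in the list. Having no filter adds low genes to the adjustment; the cause of the other shifts was not tested. Of the 40 genes, those past a log2 difference of 1 between single libraries were 0 for TCM siKLF4-siFN against SFM siKLF4-siFN with median-ratio scaling, 1 for TCM siKLF4-siFN against TCM siNT with a pseudocount of 0.1, and for SFM siKLF4-siFN against SFM siNT 2 with a pseudocount of 0.1 and 2 with GC content and length removed.

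Some values turned in sign, none of them past the threshold. With GC content and length removed these were Gla (-0.0023) and Ppt1 (-0.040) for the media effect, Atp6v1h (0.077) for siKLF4, Lamp2 (-0.48) and Scarb2 (-0.042) for the interaction, Lamp2 (0.11) and Lipa (0.059) for TCM minus SFM without siFN, Lamp2 (0.30) for siFN on SFM matrix, and Lamp2 (-0.18), Atp6v1a (-0.026) and Lipa (-0.14) for siFN on TCM matrix. Over the fits that leave out a library, the ranges were -0.021 to 0.12 for Gla and -0.029 to 0.088 for Ppt1 (media), -0.24 to 0.050 for Map1lc3b (siKLF4), -0.025 to 0.49 for Map1lc3a, -0.022 to 0.27 for Mcoln1, -0.020 to 0.29 for Gabarapl1, -0.033 to 0.24 for Gaa and -0.24 to 0.016 for Atp6v1a (siFN), -0.61 to 0.065 for Lamp2 and -0.44 to 0.015 for Ctsz (siFN on SFM matrix), and -0.068 to 0.25 for Lamp2, -0.066 to 0.18 for Atp6v1a, -0.055 to 0.11 for Tpp1 and -0.058 to 0.080 for Lipa (siFN on TCM matrix). Values of single genes under all alternatives were counted together with the list's medians and counts below 0. Of these, 1045 stayed the same, which for single genes means in direction and side of the threshold. Another 72 lost the threshold, 12 passed it newly and 32 turned in sign. The other 10, all medians or counts of the list, moved.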
